A study of Homo sapiens with 15 samples.

Results

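The untransfected MDA-MB-231 cultures are the 3 Control libraries of a series of 15 RNA-seq libraries, taken by their labels as Control 16, Control 21 and Control 26. MDA-MB-231 is an established human breast adenocarcinoma line. The cells carried no genetic change made for the study (the labels give the genotype WT) and received no siRNA. They were grown on plates coated with unlabelled gelatin for 5 to 6 h before they were scraped and RNA was taken from the pellet. The study asked how the Hippo pathway co-activators YAP and TAZ affect invadopodia, and the other 12 libraries were transfected with siControl, siYAP, siTAZ or siYAPTAZ pools (3 each). The question here is a narrower one, namely which genes these cells express on gelatin and which are at or near zero, and no group was compared with another.

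Invasive cells form invadopodia on their underside and digest the matrix there. These structures are built on a branched actin core nucleated by the Arp2/3 complex and bound by cortactin and the scaffold Tks5, and the membrane-anchored protease MMP14 cleaves matrix at their tips. YAP and TAZ are co-activators that enter the nucleus when the Hippo kinases are inactive, bind TEAD factors and drive genes such as CCN1 and CCN2. MDA-MB-231 is widely used as a model of mesenchymal, triple-negative breast cancer, a class defined by the lack of oestrogen receptor, progesterone receptor and HER2 amplification. The 3 libraries come from independent experiments, as the study's supplement describes them, on 1 line, so they describe that line and no other.

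The table held counts for 18858 genes. Control 16 had 23502695 counts, Control 21 had 20277068 and Control 26 had 19067397. Levels are given as CPM, the count divided by the library total and multiplied by 1000000, in the order 16, 21 and 26 wherever 3 values follow each other, and as mean ± SD (n = 3) otherwise. Since long transcripts yield more fragments, genes were ranked within a list as CPM per kilobase of exon (CPM per kb), while plain CPM serves to compare the libraries for 1 gene and to give shares of the counts. A gene was called expressed at 1 CPM or more in each of the 3 libraries, which is 19.1 to 23.5 counts depending on the library, and at or near zero at 3 counts or fewer in each. By these limits 12369 genes, 65.6% of all, were expressed and 1027, 5.45% of all, were at or near zero, while 5462 lay between. With Control 16, the deepest library, left out, the genes at or near zero numbered 1716, and with Control 26 left out the expressed genes numbered 12748. A count of 3 corresponds to 0.128 CPM in Control 16, 0.148 CPM in Control 21 and 0.157 CPM in Control 26, so a level under that could not be resolved at this depth (a limit that covers counting error only). Of the 13609 genes annotated as protein-coding, 11211 (82.4%) were expressed and 351 (2.58%) were at or near zero. Among 1087 lncRNA genes, 348 (32.0%) were expressed. The 637 list genes with an annotation are all protein-coding, so 82.4% and 2.58% are the nearer shares to read a list against. They are also the shares to set beside a count over a list that is given alone. List shares are over the members with values. Since every gene in the table has 5 or more counts in at least 1 of the 15 libraries, a share over measured members may lie above that over the whole list.

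The 3 libraries agreed closely, but Control 26 stood apart. Pearson's r of log2(CPM + 1) across all genes was 0.998 between Control 16 and 21, 0.994 between 16 and 26 and 0.995 between 21 and 26. Genes are not independent, so no p is attached. Of 12369 expressed genes, 6 differed by more than 2-fold between 16 and 21, whereas 313 did between 16 and 26, of which 274 were lower in 26, and 193 between 21 and 26, of which 175 were lower in 26. The biological coefficient of variation over expressed genes was 11.5%, and the median CV of the 9053 genes at a mean of 10 CPM or more was 7.37%. As a check for a library sequenced more than once, the counts of each pair were set against counting error alone. The index of dispersion, which is near 1 where a pair differs by counting error only, was 7.62, 36.5 and 19.7 for the pairs in the same order.

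The 3 marker genes were all abundant. VIM, the intermediate filament protein vimentin (chr10:17228241-17237593, plus strand, GRCh38), was measured at 1351, 1323 and 1132 CPM. CCN1, a secreted matricellular protein and YAP target (chr1:85580761-85584589, plus strand), was at 2329, 2015 and 1825 CPM. MMP14, the membrane-type matrix metalloproteinase of invadopodia (chr14:22836560-22849041, plus strand), was at 694, 568 and 532 CPM. All 3 genes were highest in Control 16 and lowest in Control 26. Per length, CCN1 stood highest of the 3 at 556 ± 68.9 CPM per kb, VIM followed at 245 ± 23.1 CPM per kb and MMP14 at 129 ± 18.4 CPM per kb, and the ranges of the 3 libraries did not overlap between these genes. Exons of a gene on the opposite strand cover 24.6% of the exon bases of VIM. Whether the counting used the strand is not given in the sources used here.

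To show what lies in front of genes at either end of the scale, the 250 bases before the RefSeq start are printed here (GRCh38.p14) for 3 abundant genes, VIM, CCN2 (connective tissue growth factor, a YAP target) and MMP14, and for 2 genes at or near zero, MMP10 (stromelysin 2) and SPP1 (osteopontin). Each runs 5′ to 3′ along the strand of its gene, and capitals mark CpG dinucleotides. VIM lies at chr10:17227991-17228240, plus strand, CCN2 at chr6:131951373-131951622, minus strand, MMP14 at chr14:22836335-22836584, plus strand, MMP10 at chr11:102780629-102780878, minus strand and SPP1 at chr4:87975464-87975713, plus strand. The start of MMP14 in GENCODE lies slightly upstream of the RefSeq start used here.
VIM: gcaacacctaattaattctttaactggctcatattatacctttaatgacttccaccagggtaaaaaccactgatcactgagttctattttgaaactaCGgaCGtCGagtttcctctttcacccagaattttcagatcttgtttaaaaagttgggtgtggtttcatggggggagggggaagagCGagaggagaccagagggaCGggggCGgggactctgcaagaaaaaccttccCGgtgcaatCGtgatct
CCN2: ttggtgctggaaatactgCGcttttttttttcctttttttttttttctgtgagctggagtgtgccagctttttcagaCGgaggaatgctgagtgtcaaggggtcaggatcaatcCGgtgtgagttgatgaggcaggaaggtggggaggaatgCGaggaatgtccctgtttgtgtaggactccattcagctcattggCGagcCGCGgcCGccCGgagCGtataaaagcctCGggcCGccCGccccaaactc
MMP14: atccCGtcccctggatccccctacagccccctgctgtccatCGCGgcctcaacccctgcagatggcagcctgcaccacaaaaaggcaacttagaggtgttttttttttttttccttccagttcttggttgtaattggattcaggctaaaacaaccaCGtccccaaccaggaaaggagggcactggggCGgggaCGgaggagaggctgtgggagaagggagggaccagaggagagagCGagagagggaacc
MMP10: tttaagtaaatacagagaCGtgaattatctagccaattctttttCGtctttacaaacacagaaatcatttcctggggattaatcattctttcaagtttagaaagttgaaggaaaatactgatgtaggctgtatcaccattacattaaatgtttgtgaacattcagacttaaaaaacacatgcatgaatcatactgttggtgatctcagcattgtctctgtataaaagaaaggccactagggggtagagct
SPP1: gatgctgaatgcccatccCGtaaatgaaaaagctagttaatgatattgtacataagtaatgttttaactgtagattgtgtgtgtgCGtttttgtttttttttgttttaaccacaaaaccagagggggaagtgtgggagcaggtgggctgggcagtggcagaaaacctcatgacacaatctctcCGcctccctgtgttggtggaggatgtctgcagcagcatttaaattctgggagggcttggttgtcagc
The stretch before VIM holds 8 CpG dinucleotides, that before CCN2 13 and that before MMP14 7. Before MMP10 there are 2 and before SPP1 3. Of the 18858 genes, 8554 had exactly 1 start listed in RefSeq. Within them the median was 22 CpG (interquartile range 16 to 29) and 65.6% G+C over the 6773 expressed genes, 12 CpG (4 to 23) and 61.2% over the 1515 genes between the limits, and 9 CpG (3 to 20.8) and 60% over the 266 genes at or near zero. The medians fell from class to class while the interquartile ranges overlapped. The stretches before VIM (46% G+C), CCN2 (53.2%) and MMP14 (56.8%) all held fewer CpG than the lower quartile of the expressed genes, and genes are not independent, so these figures are a description.

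The genes that took the most counts were mostly cytoskeletal, mitochondrial and housekeeping genes. The 20 genes of highest mean CPM, a ranking with no correction for length, held 8.97% ± 0.49 of all counts. Of these, ACTB (cytoplasmic beta-actin) was at 7473, 8609 and 8399 CPM and ACTG1 (gamma-actin) at 7063, 7572 and 6872 CPM. FLNA, the actin cross-linker filamin A, was at 7111, 6644 and 6536 CPM. PLEC, which encodes plectin, a linker of intermediate filaments to adhesions, was at 5204, 4450.4 and 3554 CPM, and ITGA3, the laminin-binding integrin alpha 3 chain, at 3074, 2442 and 2176 CPM. Of the 20 genes, 8 belong to the mitochondrial genome, 1 of them the ribosomal RNA gene MT-RNR2. The mitochondrial genome as a whole took 3.85% to 5.03% of counts, most in Control 26. The rest were HMGA1, an architectural chromatin protein, at 3233, 3707 and 4627 CPM, the chaperones HSPA8 and HSP90AB1, the glycolytic enzymes PKM and ENO1, and the elongation factors EEF1A1 (5303, 5257 and 5393 CPM) and EEF2. Genes for 84 ribosomal proteins held 3.43% to 3.72%. In every library 881 to 923 genes held 50% of the counts. The actins and EEF1A1 have near-identical copies elsewhere in the genome, so reads may be split among them.

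**Figure D1:**
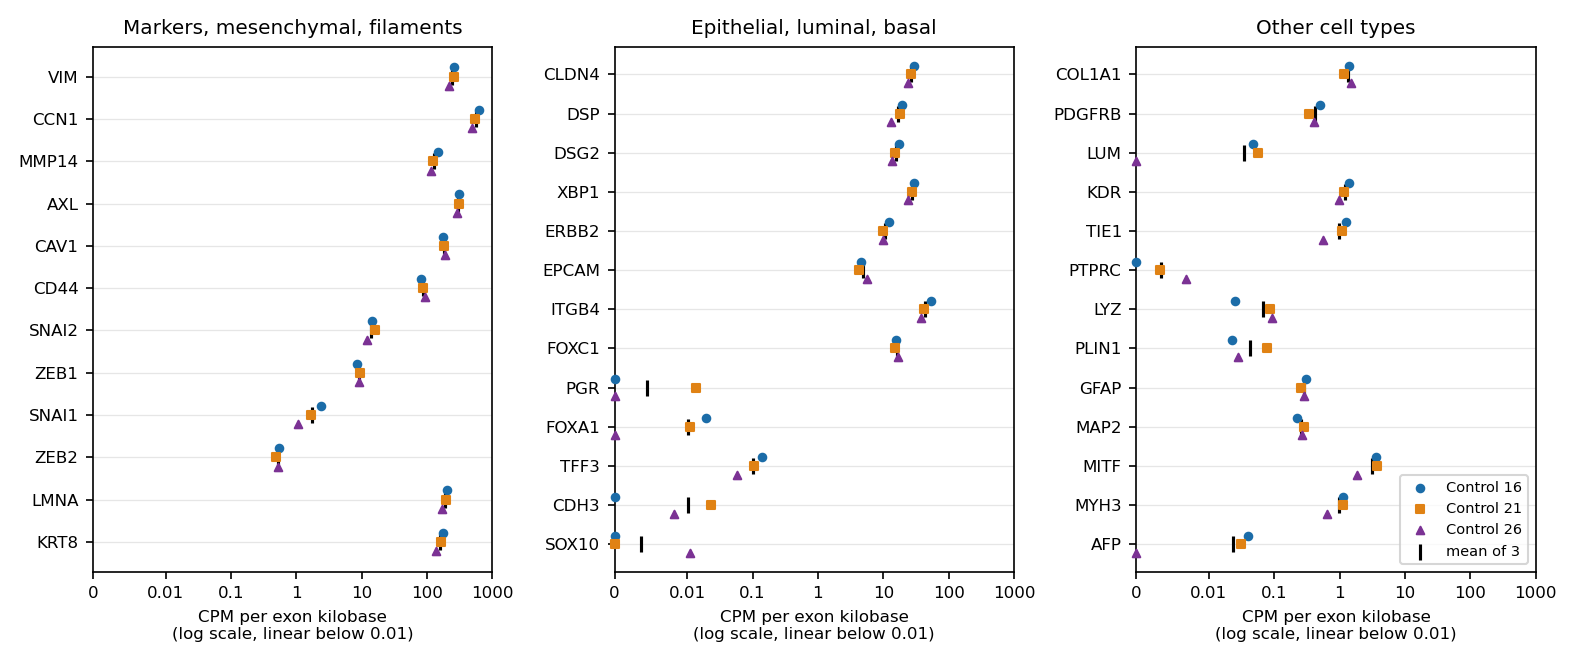
Level of marker and lineage genes in each Control library, in CPM per exon kilobase on a log axis that is linear below 0.01, with 1 symbol per library and a bar at the mean of 3. VIM, CCN1, MMP14, AXL, CAV1, LMNA and KRT8 lie above 100 on this scale, whereas PGR, FOXA1, CDH3 and SOX10 lie below 0.1 in every library.

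Among mesenchymal genes, 10 of 13 measured were expressed (76.9%, against 65.6% of all genes and 82.4% of protein-coding genes), and none was at or near zero. AXL, a receptor tyrosine kinase linked to the mesenchymal state, led per length at 303 ± 14.8 CPM per kb, ahead of VIM, an order that turned when the longest transcript was taken as length. CAV1, the coat protein of caveolae, was at 182 ± 7.19 CPM per kb and S100A4, a calcium-binding protein of motile cells, at 155 ± 18.1 CPM per kb, and their ranges overlapped. The 3 members between the limits, named after their values were seen, were the N-cadherin gene CDH2 at 0.723, 0.542 and 0.157 CPM, the matrix glycoprotein gene SPARC at 0.723, 0.888 and 0.944 CPM and the smooth muscle actin gene ACTA2 at 1.11, 1.08 and 0.996 CPM.

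Of 6 measured transcription factors that drive epithelial-mesenchymal transition (EMT), 4 were expressed (66.7%, against 65.6% of all genes and 82.4% of protein-coding genes), at lower levels per length than VIM. SNAI2 (Slug) was at 47.2, 51.9 and 40.3 CPM and ZEB1 at 74.7, 82.7 and 78.9 CPM. ZEB2 was at 14.3, 12.7 and 13.5 CPM and SNAI1 (Snail) at 4.08, 2.86 and 1.84 CPM. SNAI2 led per length at 14.2 ± 1.79 CPM per kb and ZEB1 followed at 9.11 ± 0.465 CPM per kb, with ranges that did not overlap. TWIST1, TWIST2 and FOXC2 were not analysed here.

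Of 16 listed epithelial junction genes 13 had values, and 12 of 13 were expressed (92.3% of those measured, against 65.6% of all genes and 82.4% of protein-coding genes). Their summed level was 635 to 796 CPM. CLDN4, a tight junction claudin, was at 139.9, 126 and 113 CPM and the tight junction scaffold TJP1 at 114, 108 and 109 CPM. The desmosomal plaque gene DSP was at 264, 246 and 181 CPM and the desmosomal cadherin gene DSG2 at 164, 145 and 131 CPM. EPCAM, the epithelial cell adhesion molecule, was low but above the limit at 11.3, 10.3 and 13.6 CPM, which was 4.82 ± 0.693 CPM per kb. The E-cadherin gene CDH1, RAB25 and MARVELD3 were not analysed here. Among epithelial transcription and splicing factors, 3 of 5 measured were expressed (60%, against 65.6% of all genes and 82.4% of protein-coding genes). KLF5 was at 42.2, 48.4 and 46.6 CPM and the ETS factor EHF at 22.5, 27.9 and 33.4 CPM. The splicing regulator ESRP2 was at 12, 13.7 and 11.6 CPM. ESRP1, GRHL2, OVOL1 and OVOL2 were not analysed here.

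Simple-epithelial keratins accompanied vimentin. All 14 measured intermediate filament genes were expressed. Per length VIM was highest at 245 ± 23.1 CPM per kb, and then the nuclear lamin gene LMNA at 189.6 ± 18.4 CPM per kb, the keratin gene KRT8 at 158 ± 20.2 CPM per kb and the lamin gene LMNB2 at 132 ± 12.3 CPM per kb. The ranges of LMNA and KRT8 overlapped, as did those of KRT8 and LMNB2. KRT8 was at 1201, 1136 and 934 CPM, and its partner KRT18, named after its values were seen, at 269, 285 and 237 CPM.

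Of the luminal genes, 6 of 14 measured were expressed (42.9%, against 65.6% of all genes and 82.4% of protein-coding genes) and 2 were at or near zero (14.3%, against 5.45% and 2.58%). FOXA1, the pioneer factor of luminal cells, had 2, 1 and 0 counts, and the trefoil factor gene TFF3 had 3, 2 and 1 counts. PGR, the progesterone receptor, had 0, 4 and 0 counts, 1 count above the limit of 3 in a single library. ERBB2, which encodes HER2, was expressed at 125, 103 and 103 CPM. XBP1, a factor of the secretory pathway, led the luminal list per length at 27.1 ± 3.18 CPM per kb, ahead of the melanophilin gene MLPH at 12.3 ± 1.35 CPM per kb and ERBB2 at 10.7 ± 1.22 CPM per kb, whose ranges overlapped. The transcription factor gene SPDEF was at 18.1, 18.1 and 6.92 CPM, and Control 26 stood apart from the other 2 libraries. The oestrogen receptor gene ESR1 was not analysed here. The gene ESR2, named after its values were seen, was at 0.468, 0.493 and 0.577 CPM.

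Of the basal and myoepithelial genes, 5 of 11 were expressed (45.5%, against 65.6% of all genes and 82.4% of protein-coding genes) and 2 were at or near zero (18.2%, against 5.45% and 2.58%). ITGB4, the hemidesmosomal integrin chain, was at 361, 282 and 253 CPM. FOXC1, a factor of basal-like cells, was at 63.3, 60.8 and 66.6 CPM and the oxytocin receptor gene OXTR at 12.7, 12.6 and 7.08 CPM. SOX10, a neural crest and myoepithelial factor, had 0, 0 and 1 counts, and CDH3, which encodes P-cadherin, had 0, 3 and 1 counts. The keratin genes KRT5, KRT14, KRT6A and KRT6B were not analysed here.

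Markers of other cell types were low in all 3 libraries. The summed level of the 3 measured leukocyte markers was 0.766 to 1.04 CPM, none was expressed, and PTPRC (CD45) and LYZ (lysozyme) had 0, 1 and 2 counts and 1, 3 and 3 counts. Fibroblast markers summed to 13.2 to 16.7 CPM over 4 measured genes, of which COL1A1 (type I collagen) reached 12.3, 10.4 and 13.5 CPM and PDGFRB 3.62, 2.42 and 2.94 CPM, while the proteoglycan gene LUM had 3, 3 and 0 counts. Endothelial markers summed to 10.4 to 18.3 CPM over 4 genes. The VEGF receptor gene KDR was at 8.94, 7.5 and 6.24 CPM and the receptor kinase gene TIE1 at 8.42, 7.3 and 3.67 CPM. Neural markers (2 of 5 expressed) summed to 7.71 to 8.72 CPM, with the astrocyte filament gene GFAP at 3.49, 2.91 and 3.25 CPM and the neuronal MAP2 at 2.64, 3.35 and 3.2 CPM. Melanocyte markers (1 of 3) summed to 14.5 to 29.1 CPM, most of it MITF, a factor also active outside melanocytes, at 27.1, 28.1 and 13.8 CPM. Skeletal muscle markers (1 of 3) summed to 4.46 to 8.38 CPM, with the embryonic myosin gene MYH3 at 7.57, 7.59 and 4.35 CPM. The liver markers summed to 0.197 to 0.262 CPM with neither expressed, and AFP (alpha-fetoprotein) had 3, 2 and 0 counts. The single adipocyte marker measured, PLIN1, had 2, 6 and 2 counts. No erythroid marker was measured.

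**Figure D2:**
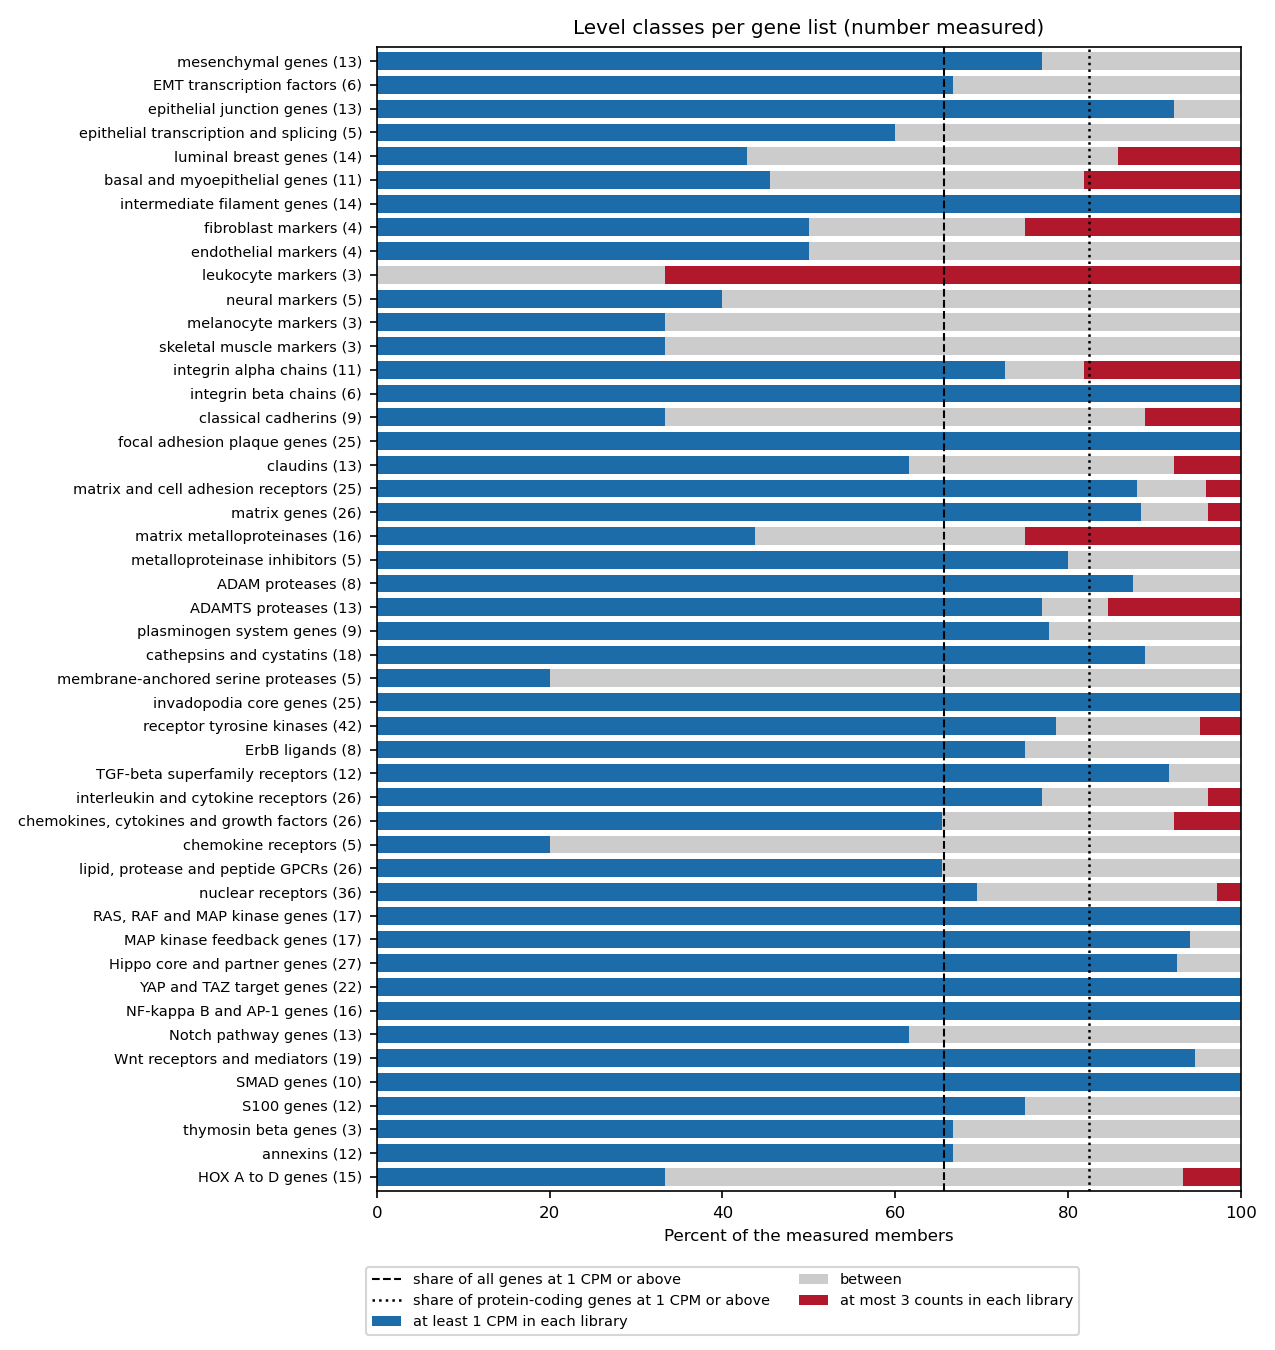
Share of the measured members of each gene list (number measured in parentheses) in 3 level classes, with the dashed line at the 65.6% of all 18858 genes and the dotted line at the 82.4% of protein-coding genes that were expressed. Intermediate filament, integrin beta chain, focal adhesion, invadopodia, RAS and MAP kinase, YAP and TAZ target, NF-kappa B and AP-1 and SMAD lists are expressed in full, and the metalloproteinase, cadherin, chemokine receptor and HOX bars end to the left of both lines.

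Among integrin alpha chains the laminin-binding ITGA3 and ITGA6 were highest per length. Of the alpha chains, 8 of 11 measured were expressed (72.7%, against 65.6% of all genes and 82.4% of protein-coding genes). All 6 measured beta chains were expressed. Another 7 listed alpha chains and 2 listed beta chains were not analysed here. ITGA3 stood at 314, 249 and 222 CPM per kb, above every other alpha chain in each library. ITGA6, another laminin receptor chain, was at 48.1, 43.6 and 37.2 CPM per kb. The fibronectin receptor chain ITGA5 was at 37.1, 30.2 and 25.7 CPM per kb. These laminin and fibronectin receptor chains kept the same order in every library. The collagen receptor chain ITGA2 was at 11.3, 9.24 and 7.41 CPM per kb. Each of these was highest in Control 16 and lowest in Control 26, and no 2 neighbours in this order overlapped. On the beta side ITGB1, the common partner of alpha chains, was at 53.4, 46.9 and 40.2 CPM per kb and ITGB4 at 53.4, 41.8 and 37.4 CPM per kb, which overlapped. ITGB5, a vitronectin receptor chain, was at 32.2, 26.3 and 24.4 CPM per kb. The leukocyte chain ITGB2 was at 2.85, 2.29 and 1.33 CPM per kb. The platelet chain ITGA2B had 3, 2 and 0 counts and the collagen-binding ITGA11 had 2, 2 and 1 counts, so both were at or near zero. ITGA4, which pairs with ITGB1 in leukocytes, was not analysed here.

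Of the classical cadherins, 3 of 9 measured were expressed (33.3%, against 65.6% of all genes and 82.4% of protein-coding genes), namely CDH4 (R-cadherin) at 156, 134 and 114 CPM, CDH24 at 35, 34.3 and 24.8 CPM and the mesenchymal CDH11 at 45.4, 39.3 and 17.8 CPM. Together the 9 measured cadherins summed to 158 to 238 CPM. Of claudins, 8 of 13 were expressed (61.5%), and CLDN4 led per length at 26.9 ± 2.87 CPM per kb. CLDN12 at 6.8 ± 0.0518 CPM per kb and CLDN23 at 6.46 ± 1.28 CPM per kb overlapped in range, CLDN15 was at 4.1 ± 0.521 CPM per kb, and CLDN14 had 0, 2 and 0 counts.

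All 25 measured genes of the focal adhesion plaque were expressed, against 65.6% of all genes and 82.4% of protein-coding genes. ACTN4, an actin cross-linker, was at 406 ± 6.94 CPM per kb, zyxin (ZYX), which marks tension-bearing adhesions, at 160.3 ± 25.8 CPM per kb, talin (TLN1), which activates integrins, at 105 ± 6.98 CPM per kb and the actin elongation factor gene VASP at 84.1 ± 2.92 CPM per kb. The ranges of ACTN4, ZYX, TLN1 and VASP followed each other without overlap. Zyxin was lowest in Control 16 and highest in Control 26, the opposite of ITGA3. The gene for integrin-linked kinase, ILK, named after its values were seen, was at 1.74, 2.37 and 1.31 CPM, and exons of a gene on the opposite strand cover 78.5% of its exon bases, whose part in the value was not tested.

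All 25 invadopodia core genes were expressed, against 65.6% of all genes and 82.4% of protein-coding genes. Cofilin (CFL1), which severs actin filaments, was at 278 ± 37.1 CPM per kb, the GTPase gene RHOA at 142 ± 9.31 CPM per kb, MMP14 at 129 ± 18.4 CPM per kb and the calpain gene CAPN2 at 98.2 ± 2.58 CPM per kb, with RHOA and MMP14 overlapping. Named after their values were seen, the scaffold gene SH3PXD2A (Tks5) was at 84.9, 77.5 and 90.3 CPM, cortactin (CTTN) at 350.3, 357 and 313 CPM and the kinase gene SRC at 53.3, 56.7 and 68 CPM. The lowest gene per length of the listed Arp2/3 complex subunits was ARPC1B, at 4.6, 5.42 and 4.93 CPM, where 23.1% of the exon bases overlap another gene on the same strand.

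Of the matrix and cell adhesion receptors, 22 of 25 measured were expressed (88%, against 65.6% of all genes and 82.4% of protein-coding genes). The tetraspanin gene CD63 was at 98.8 ± 7.05 CPM per kb, the hyaluronan receptor gene CD44 at 87.4 ± 6.05 CPM per kb, the junctional adhesion gene NECTIN2 at 79.7 ± 3.72 CPM per kb and the integrin-associated tetraspanin gene CD151 at 69 ± 5.99 CPM per kb. CD63 overlapped in range with CD44 and CD44 with NECTIN2. VCAM1, a ligand for leukocyte integrins, was at or near zero with 1, 1 and 2 counts.

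Matrix genes varied between the libraries, with a median CV of 22.1% over the expressed members against 8.85% over all expressed genes. All 26 had values, 23 of 26 were expressed (88.5%), and the list summed to 11601, 9242 and 7935 CPM. CCN1 led per length at 629.9, 545 and 494 CPM per kb. THBS1 (thrombospondin 1) was at 278, 218 and 212 CPM per kb. CCN2 was at 228, 205 and 176 CPM per kb. The laminin 332 chain gene LAMB3 was at 249.9, 182 and 167 CPM per kb, and neighbours from THBS1 to LAMB3 overlapped in range. All 4 were highest in Control 16 and lowest in Control 26. Fibronectin (FN1), named after its values were seen, was at 981, 755 and 428 CPM, so that Control 26 lay below the other libraries. SPP1 had 0, 0 and 0 counts, which means that no read was assigned to it in any of the 3 libraries.

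**Figure D3:**
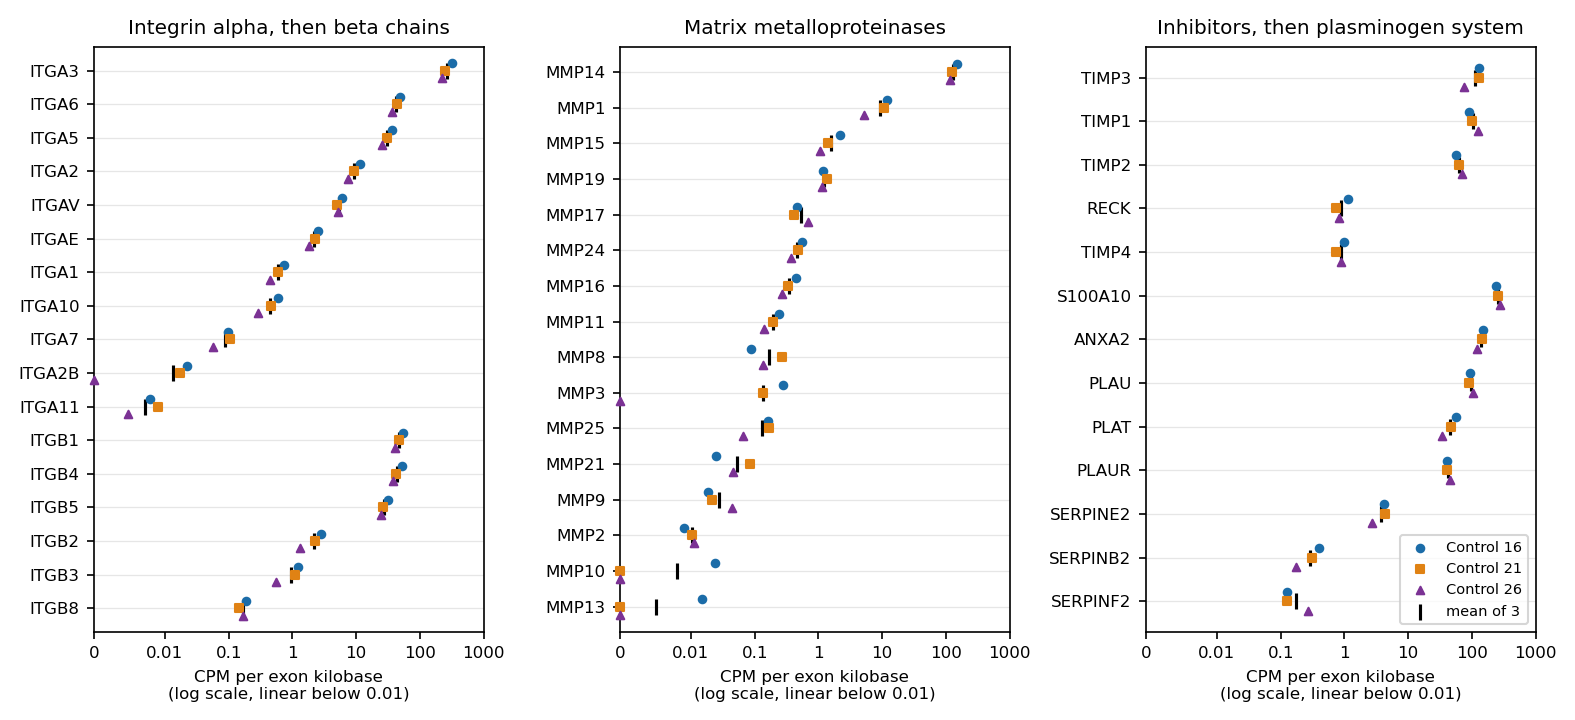
CPM per exon kilobase of integrin chains, matrix metalloproteinases, their inhibitors and the reported plasminogen system genes in each Control library, on a log axis that is linear below 0.01, each list sorted by its mean. MMP14 has a mean of 129 and MMP1 of 9.27, the other metalloproteinases lie below 3, and MMP2, MMP9, MMP10 and MMP13 lie at or near 0.

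Matrix metalloproteinases spanned a wide range of levels. 7 of 16 measured were expressed (43.8%, against 65.6% of all genes and 82.4% of protein-coding genes), and 4 were at or near zero (25%, against 5.45% and 2.58%). MMP14, the transmembrane activator and collagenase, was at 150.1, 123 and 115 CPM per kb. MMP1, the interstitial collagenase, was at 11.9, 10.7 and 5.27 CPM per kb, below MMP14 in each library. MMP15, another membrane type, was at 2.19, 1.43 and 1.08 CPM per kb and MMP19 at 1.17, 1.38 and 1.12 CPM per kb, which overlapped. The gelatinases are the members that digest denatured collagen most efficiently, and both were at or near zero. MMP2 had 1, 1 and 1 counts and MMP9 had 1, 1 and 2 counts. The stromelysin MMP10 had 1, 0 and 0 counts and the collagenase MMP13 1, 0 and 0 counts. In Control 26, the shallowest library, 3 counts are 0.157 CPM. MMP7, MMP12 and MMP28 were not analysed here.

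Of the metalloproteinase inhibitors, 4 of 5 were expressed. TIMP3, which is held in the matrix, was at 129, 128 and 75.1 CPM per kb. TIMP1, a soluble inhibitor, was at 90.7, 99.1 and 124 CPM per kb, overlapping with TIMP3 and ahead of it with the longest transcript as length. TIMP2, which assists MMP14 in activating pro-MMP2, was at 57, 62.1 and 69.4 CPM per kb. TIMP1 and TIMP2 were highest in Control 26 and TIMP3 was lowest there. The membrane inhibitor gene RECK was at 1.12, 0.726 and 0.829 CPM per kb.

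Among ADAM proteases, which shed membrane proteins, 7 of 8 were expressed (87.5%, against 65.6% of all genes and 82.4% of protein-coding genes). ADAM15 at 47.3 ± 5.06 CPM per kb led per length, followed by ADAM8 at 30.8 ± 5.02 CPM per kb. Next came ADAM9 at 15.5 ± 1.91 CPM per kb, and ADAM19 at 13.7 ± 0.732 CPM per kb, which overlapped. Of the secreted ADAMTS proteases 10 of 13 were expressed (76.9%). ADAMTS1 stood at 146, 121 and 72.5 CPM, ADAMTS15 at 73.4, 66.1 and 53.2 CPM, ADAMTS12 at 69.5, 68.8 and 73 CPM and ADAMTS16 at 39.9, 35.8 and 30 CPM. ADAMTS5, an aggrecanase, had 0, 0 and 0 counts and ADAMTS13, the von Willebrand factor protease, 2, 3 and 2 counts.

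Of the plasminogen system genes, 7 of 9 were expressed (77.8%, against 65.6% of all genes and 82.4% of protein-coding genes). The annexin 2 partner gene S100A10 was at 258 ± 19.8 CPM per kb, ANXA2, a plasminogen docking protein, at 138 ± 15.6 CPM per kb and PLAU (urokinase) at 96.6 ± 8.31 CPM per kb. PLAU overlaps a gene on the opposite strand over 31% of its exon bases. 16 of 18 cathepsin and cystatin genes were expressed, headed by the aspartyl protease gene CTSD at 100.4 ± 9.2 CPM per kb and the inhibitor genes CST3 at 73.9 ± 3.91 CPM per kb, CST1 at 33.1 ± 2.89 CPM per kb and CST6 at 27 ± 1.59 CPM per kb. Of the membrane-anchored serine proteases, 1 of 5 measured was expressed (20%, against the same shares), ST14 (matriptase) at 1.62, 1.18 and 1.1 CPM. Another 7 of the 12 listed were not analysed here.

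Of the receptor tyrosine kinases, 33 of 42 measured were expressed (78.6%, against 65.6% of all genes and 82.4% of protein-coding genes), with a summed level of 3858 to 4710.4 CPM. AXL was at 314, 307 and 286 CPM per kb. EPHA2, an ephrin receptor, was at 268, 213 and 186 CPM per kb. These leading receptors did not overlap in range. MET, the receptor for hepatocyte growth factor, was at 37.1, 33 and 25.2 CPM per kb. EGFR, the epidermal growth factor receptor, was at 34, 29.8 and 26.2 CPM per kb, overlapping with MET. AXL and EPHA2 were above MET in every library, and EPHB4 was next after EGFR. EPHA3 had 1, 2 and 0 counts and EPHB6 had 3, 3 and 2 counts. The receptor genes KIT, PDGFRA and RET were not analysed here.

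**Figure D4:**
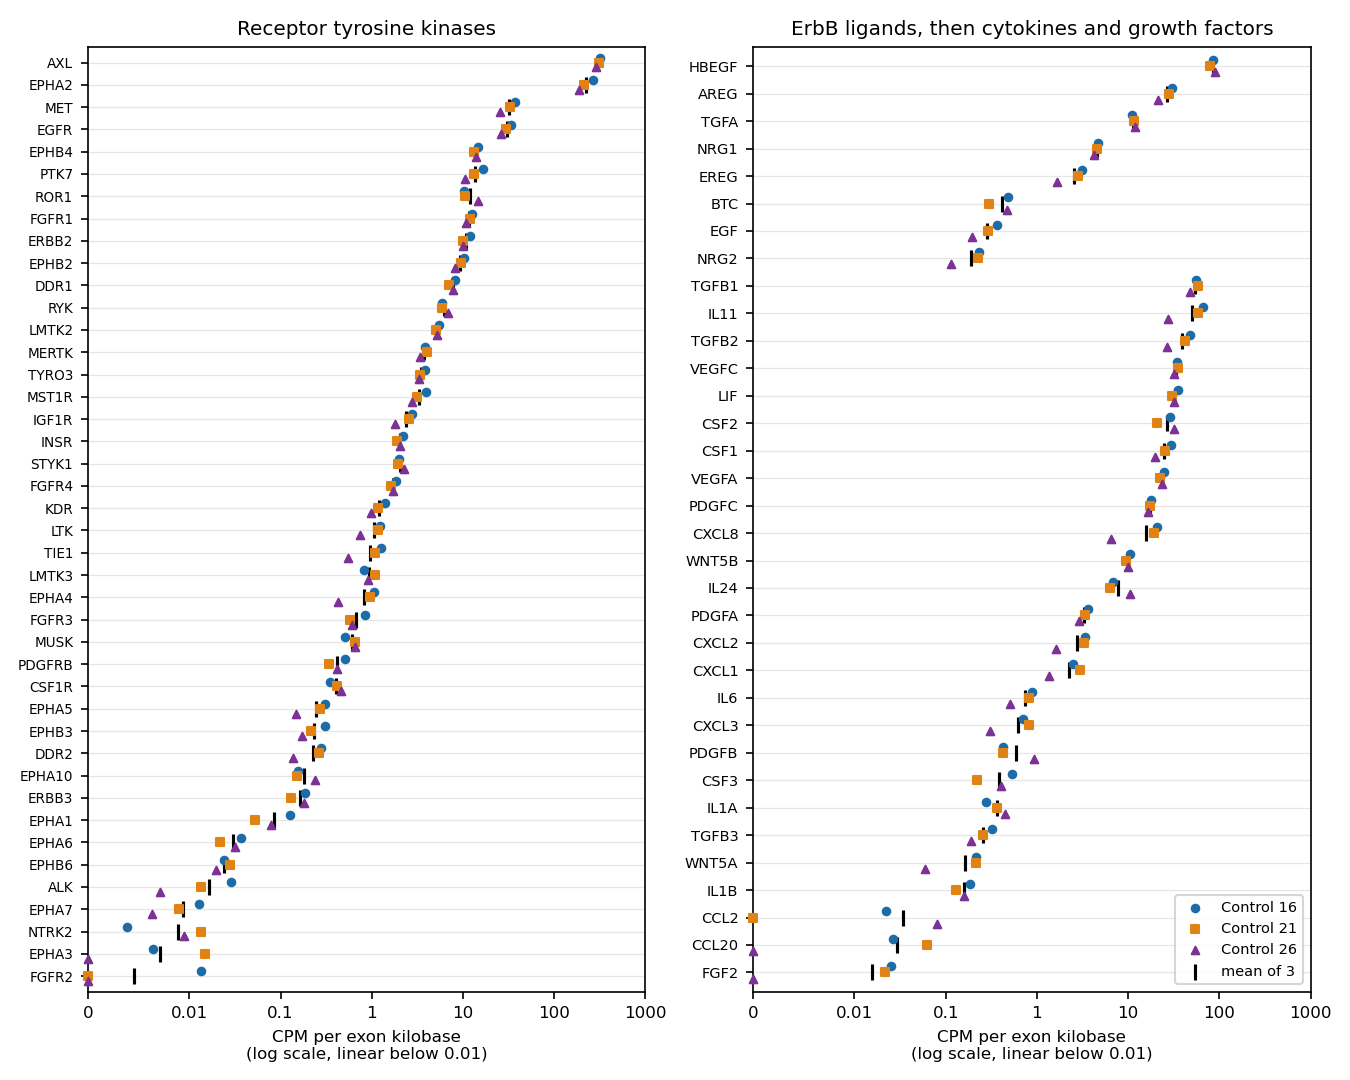
CPM per exon kilobase of receptor tyrosine kinases (left) and of ErbB ligands, cytokines and growth factors (right) in each Control library, each list sorted by its mean, on a log axis that is linear below 0.01. AXL and EPHA2 lie between 186 and 314, and HBEGF leads the ligands between 78.2 and 90.5.

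ErbB ligands were present alongside their receptor. 6 of 8 were expressed. HBEGF at 84.6 ± 6.18 CPM per kb led per length, followed by the amphiregulin gene AREG at 26.4 ± 4.44 CPM per kb. Next came TGFA at 11.4 ± 0.418 CPM per kb, and the neuregulin gene NRG1 at 4.52 ± 0.239 CPM per kb. For TGF-beta superfamily receptors 11 of 12 were expressed. TGFBR2 at 18.6 ± 0.56 CPM per kb led per length, followed by TGFBR1 at 5.21 ± 0.136 CPM per kb. Next came the BMP receptor gene BMPR2 at 4.29 ± 0.0629 CPM per kb, and the activin receptor gene ACVR1B at 3.07 ± 0.196 CPM per kb. Cytokine receptors were expressed in 20 of 26 cases. The TNF receptor gene TNFRSF1A was at 35.4 ± 5.56 CPM per kb, IFNGR2, a chain of the interferon gamma receptor, at 19.5 ± 5.04 CPM per kb, IL6ST, the shared gp130 chain, at 19.2 ± 0.482 CPM per kb and OSMR, the oncostatin M receptor, at 17 ± 4.49 CPM per kb. IL2RB, a lymphocyte receptor chain, had 1, 1 and 0 counts.

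Among chemokines, cytokines and growth factors, 17 of 26 were expressed (65.4%, against 65.6% of all genes and 82.4% of protein-coding genes). TGFB1 was at 53.8 ± 5.78 CPM per kb, IL11, a gp130 cytokine, at 50.2 ± 20.2 CPM per kb, TGFB2 at 38.9 ± 10.8 CPM per kb and the lymphangiogenic VEGFC at 33.8 ± 1.67 CPM per kb, and the ranges of neighbours in that order overlapped. IL11 was 175, 155 and 73.1 CPM, so that Control 26 stood lower than both others. The chemokine genes CCL2 and CCL20 had 1, 0 and 3 counts and 1, 2 and 0 counts. CXCL8, which attracts neutrophils, was at 53.8, 50.2 and 16.8 CPM. Of the chemokine receptors 1 of 5 measured was expressed, CXCR4 at 22.8, 24.8 and 9.6 CPM.

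G protein-coupled receptors for lipids, proteases and peptides were expressed in 17 of 26 cases (65.4%), a share near that of all genes (65.6%) and below that of protein-coding genes (82.4%). The adhesion receptor gene ADGRE5 was at 85 ± 13.7 CPM per kb and the protease-activated receptor gene F2RL1 at 73.9 ± 14.2 CPM per kb. GPRC5A was at 40.5 ± 11.2 CPM per kb. Nuclear receptors were expressed in 25 of 36 cases, with the orphan receptor NR2F2 at 83 ± 4.59 CPM per kb well above PPARD, a fatty acid sensor, at 26.1 ± 1.52 CPM per kb. NR2F6 was at 26 ± 4.35 CPM per kb and the oxysterol sensor NR1H2 at 24.3 ± 1.04 CPM per kb, and neighbours from PPARD down overlapped in range. The orphan receptor ESRRG had 0, 1 and 0 counts.

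All 17 RAS, RAF and MAP kinase genes were expressed, against 65.6% of all genes and 82.4% of protein-coding genes. HRAS at 49 ± 2.48 CPM per kb led per length, followed by the kinase gene MAP2K2 (MEK2) at 41.3 ± 6.87 CPM per kb. Next came RRAS at 37.7 ± 2.48 CPM per kb, and NRAS at 30.2 ± 1.98 CPM per kb. HRAS overlapped in range with MAP2K2, and MAP2K2 with RRAS, and MAP2K2 was ahead of HRAS with the longest transcript as length. Of the genes that MAP kinase activity induces and that feed back on it, 16 of 17 were expressed. FOSL1, an AP-1 subunit, was at 526, 582 and 686 CPM per kb, the highest of this list in each library. The early response gene IER3 was at 247 ± 29.9 CPM per kb, with 38.9% of its exon bases under a gene on the opposite strand, PHLDA1 at 87.4 ± 6.2 CPM per kb and the phosphatase gene DUSP5 at 78.4 ± 19.3 CPM per kb.

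Most listed Hippo pathway genes and all listed YAP and TAZ targets were expressed. Of the Hippo core and partner genes, 25 of 27 passed the limit (92.6%, against 65.6% of all genes and 82.4% of protein-coding genes). YAP1 was at 172, 189.9 and 180.0 CPM and WWTR1, which encodes TAZ, at 62.8, 65.9 and 73 CPM. Per length YAP1 was at 28.6 ± 1.42 CPM per kb and WWTR1 at 8.05 ± 0.626 CPM per kb, with no overlap between the genes. AMOTL2, an angiomotin that binds YAP, led the list at 46.9 ± 0.313 CPM per kb, and the DNA-binding partners TEAD1 and TEAD3 were at 25.7 ± 2.13 CPM per kb and 25.4 ± 4.61 CPM per kb, each overlapping in range with YAP1. All 22 YAP and TAZ target genes were expressed, against the same shares. Their summed level was 8429 to 10279 CPM. After CCN1 came ANKRD1, an ankyrin repeat protein of muscle sarcomeres and a common YAP reporter, at 419, 392 and 258 CPM per kb. F3 (tissue factor, the starter of coagulation) was at 367, 359 and 263 CPM per kb. AXL was next, and the ranges of ANKRD1, F3 and AXL overlapped from neighbour to neighbour.

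NF-kappa B and AP-1 genes were all expressed, 16 of 16. After FOSL1, the AP-1 genes JUN and JUND were at 168 ± 23 CPM per kb and 92 ± 13.4 CPM per kb, and the NF-kappa B subunit gene RELA at 45.8 ± 5.43 CPM per kb. All 10 SMAD and SKI genes were expressed as well. The repressor SKI was at 32.4 ± 0.911 CPM per kb and SMAD3 at 25.1 ± 1.86 CPM per kb, an order that turned with the longest transcript as length and in plain CPM. Next came SMAD5 at 8.41 ± 0.383 CPM per kb, and the inhibitory SMAD7 at 4.31 ± 0.435 CPM per kb. Notch pathway genes were expressed in 8 of 13 cases (61.5%), and the receptors NOTCH2 and NOTCH1 were at 21.1 ± 3.56 CPM per kb and 15.2 ± 1.59 CPM per kb, the DNA-binding RBPJ at 11.5 ± 0.668 CPM per kb and the target HES1 at 10.4 ± 2.99 CPM per kb. Of the Wnt receptors and mediators, 18 of 19 were expressed. The secreted antagonist DKK1 at 236 ± 42.8 CPM per kb led per length, followed by the co-receptor LRP5 at 35.5 ± 4.31 CPM per kb. Next came the receptor FZD2 at 32.5 ± 3.31 CPM per kb, and CTNNB1 (beta-catenin) at 27.3 ± 3.97 CPM per kb, and neighbours from LRP5 down overlapped in range.

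S100 genes, small calcium-binding proteins, were expressed in 9 of 12 cases (75%, against 65.6% of all genes and 82.4% of protein-coding genes). S100A6 at 525 ± 14.6 CPM per kb led per length, followed by S100A11 at 398 ± 36.9 CPM per kb. Next came S100A10 at 258 ± 19.8 CPM per kb, and S100A4 at 155 ± 18.1 CPM per kb. Thymosin beta genes, which bind monomeric actin, were expressed in 2 of 3 cases, TMSB10 at 1699 ± 88.6 CPM per kb and TMSB4X at 235 ± 22.9 CPM per kb. Annexins, calcium-dependent membrane binders, were expressed in 8 of 12 cases (66.7%). ANXA5 was at 252 ± 41.5 CPM per kb and ANXA2 at 138 ± 15.6 CPM per kb, but with the longest transcript as length ANXA2 had a mean of 453 CPM per kb and ANXA5 of 450.0, so their order rests on the length used. Next came ANXA1 at 106 ± 12.8 CPM per kb, and ANXA6 at 44.3 ± 1.92 CPM per kb. Of the HOX genes, which record axial position, 5 of 15 measured were expressed (33.3%, against the same shares of all and protein-coding genes). Another 24 of the 39 listed were not analysed here. HOXB9 led per length at 12.9 ± 0.206 CPM per kb, followed by HOXD4, HOXD1 and HOXD3, the last at 0.971 ± 0.0198 CPM per kb. HOXC4 had 2, 0 and 1 counts. HOXD1 overlaps a gene on the opposite strand over 60.1% of its exon bases.

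The distance of Control 26 from the other libraries differed by gene list, over the lists with 5 or more expressed members. Over all expressed genes it was the lowest library for 48.6% (37.2% with TMM scaling), and the median log2 ratio of its CPM to the mean of Control 16 and 21 was -0.04. Over matrix genes it was lowest for 20 of 23 with a median of -0.41, and over integrin alpha chains for 7 of 8 with -0.39. Matrix metalloproteinases (-0.45) and G protein-coupled receptors (-0.48) lay furthest down among these lists. The mitochondrial genome genes (0.23), S100 genes (0.18), plasminogen system genes (0.15) and RAS and MAP kinase genes (0.13) lay furthest above the median of all genes, followed by the invadopodia core (0.06), Hippo (0.04) and TGF-beta receptor (-0.02) lists. With TMM scaling each of these lists kept its side of the median of all expressed genes, which was then 0.03. The lists were chosen with earlier results of these data known and no test was made, so these are descriptions of 1 library. With Control 26 left out, no list's number of expressed members moved by more than 1.5 times.

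**Figure D5:**
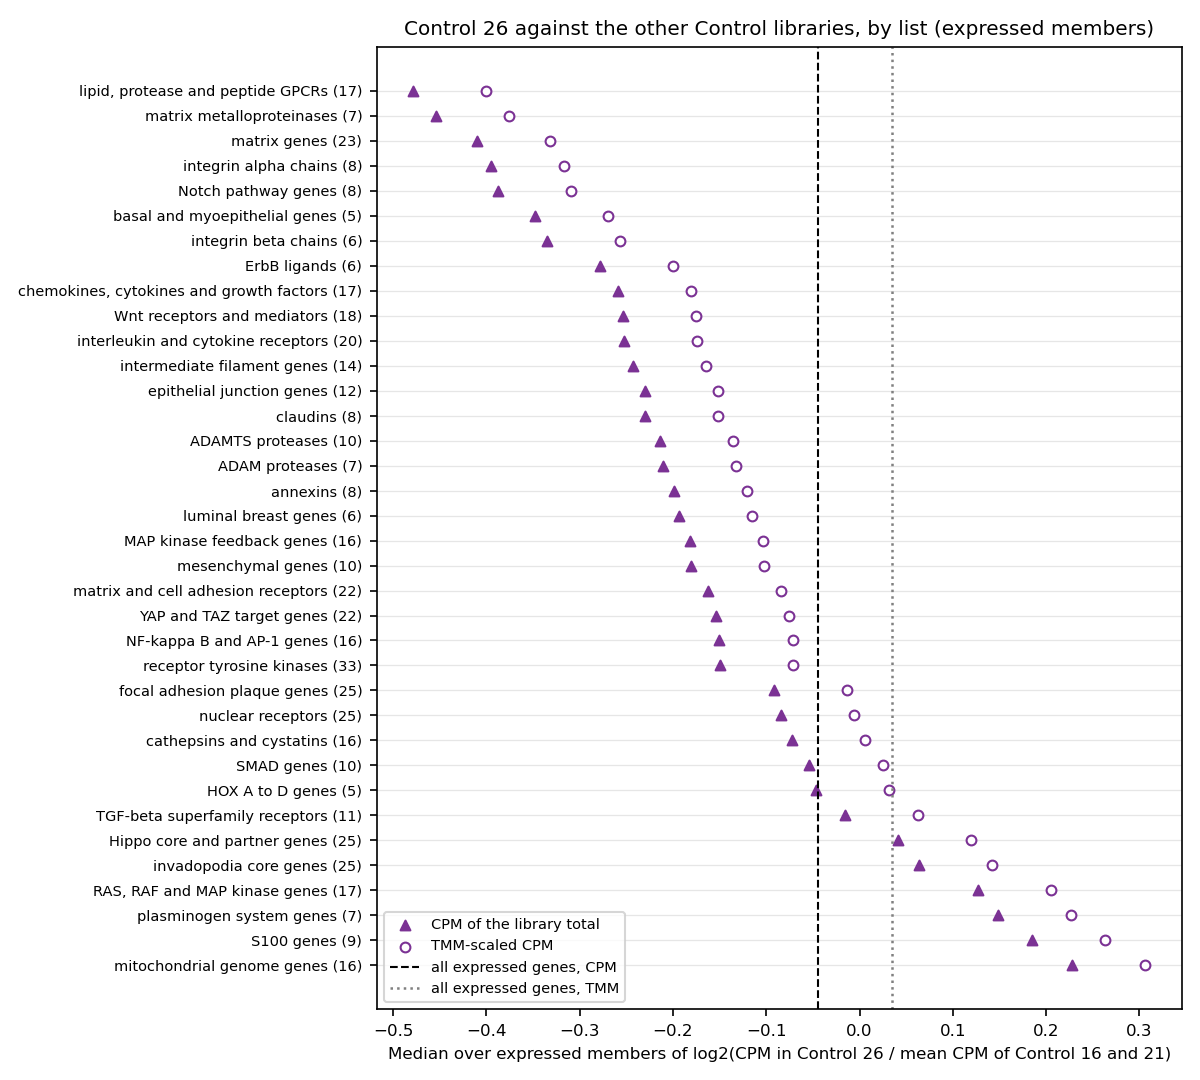
Median over the expressed members of each list with 5 or more of them, of the log2 ratio of CPM in Control 26 to the mean CPM of Control 16 and 21, from the library total (triangles) and after TMM scaling (open circles), with vertical lines at the median of all 12369 expressed genes. Lipid, protease and peptide receptors, metalloproteinases, matrix genes and integrin alpha chains lie lowest of the lists drawn, and mitochondrial genome genes highest.

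The 10 genes at a mean of 10 CPM or more with the largest ratio of highest to lowest library included TXNDC5, RASD1, ATF3, FOSB, SAP30, CXCL8, CSPG4, ID1 and FBN1. Of these, the immediate early factors ATF3 at 45.2, 33 and 12.6 CPM and FOSB at 82.3, 62.5 and 24.3 CPM, the small GTPase gene RASD1 at 15.7, 12.7 and 4.14 CPM and the inhibitor of differentiation ID1 at 86.5, 73.5 and 28.2 CPM were lowest in Control 26. So were CXCL8, the proteoglycan gene CSPG4 at 39.6, 29.9 and 12.8 CPM and the fibrillin gene FBN1 at 51.7, 40.4 and 17 CPM. The co-repressor component SAP30 at 16.4, 19.7 and 55.2 CPM and the disulphide isomerase gene TXNDC5 at 14.5, 32.8 and 58.3 CPM were highest there. TXNDC5 shares 60.9% of its exon bases with another gene on the same strand, so its level is uncertain.

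The share of protein-coding genes expressed differed between classes of overlap with other genes. On the same strand 82.8% of the 11220 genes with no shared exon bases were expressed, 83.6% of the 2210 with up to 50% shared and 41.3% of the 179 with more than 50% (74 genes). On the opposite strand the shares were 80.9% of 7872 genes with no overlap, 84.7% of 5609 with up to 50% and 71.9% of 128 with more than 50%. In both cases the middle class was highest. The part of overlap in any single value was not tested.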

How the data were processed

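Polyadenylated mRNA of 15 MDA-MB-231 cultures was sequenced by the authors on a NovaSeq instrument from 500 ng of total RNA, and reads were aligned with STAR 2.4.2a to GRCh38 and assigned to genes of GENCODE 34. The deposited table holds raw counts per gene, and only its columns for Control 16, 21 and 26 were used. Every listed gene has 5 or more counts in at least 1 of the 15 libraries. The authors' DESeq2-normalised columns and their columns of fold changes and p-values from comparisons were left out. Whether reads were counted by strand is not given in the sources used here.

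CPM was computed from each library total over all 18858 genes, with no filter. A total of 19067397 to 23502695 counts per library sets the precision. Exon lengths (union of exons) were taken from GENCODE 44 by gene name for 15574 genes (82.6%). The 3284 unmatched genes held 0.954% of the counts, and 637 of the 638 list genes measured had a length. Of 842 distinct genes in 51 lists, 204 were not analysed here. Promoter stretches came from RefSeq (GRCh38.p14). Scaling and dispersion used edgeR 4.0.16 and DESeq2 1.42.0 in R 4.3.3, and all else Python 3.11.15. The level classes were also run on counts simulated with counting error alone, a check of the calculation and not of these libraries. No significance test was made, since 1 group is described. Replicates are the 3 libraries that the labels give, and SDs measure the spread between them.

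The members and lists were chosen with earlier results of these data known. The genes named are VIM, CCN1 and MMP14, the 20 of highest mean CPM, in each list the 4 expressed members of highest level per kb and the members at or near zero, 7 receptor, adhesion and co-activator genes (ESR1, PGR, ERBB2, CDH1, EPCAM, YAP1 and WWTR1), and the 10 most variable genes. Any other gene was named after its values were seen. Some genes that these rules name are not reported here, but they stay in the counts over their lists.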

Additional observations from a re-analysis of the deposited data

How the results depend on the processing

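No paired analysis was possible because a single group is described and no test was made. Scaling by TMM or by DESeq2 size factors, or leaving the mitochondrial genome out of the total, changed the CPM of the 213 named genes by at most 5.29%. Among these 213 genes, leaving out 1 library moved the mean CPM by over 1.5 times in 22 instances. All concerned genes at or near zero except PGR, which had no count without Control 21, and SAP30. The mean of SAP30 fell from 30.4 to 18.1 CPM without Control 26. Genes outside the rules of choice, such as PLIN1, were not part of this count. The number of genes at or near zero depended on the limit, with 40 at 0 counts and 3878 at 10 counts or fewer in each library, and ranged from 1220 to 1716 when 1 library was left out. The number of genes expressed ranged from 12431 to 12748 in that case. At 5 CPM in each library, 1 fibroblast, 1 endothelial, 0 neural and 0 skeletal muscle markers, 4 claudins, 3 matrix metalloproteinases, 6 ADAMTS proteases, 0 membrane-anchored serine proteases, 5 Notch genes and 2 HOX genes were expressed. At 0.5 CPM, as at 10 counts in each library, 1 leukocyte marker, 2 melanocyte markers, 2 chemokine receptors and 8 HOX genes were, and at a mean of 1 CPM 2 melanocyte markers. Without the mitochondrial genome in genes and total, the remaining members of the 20 most abundant genes held 5.57%. This share covers fewer genes, since none were added in place of the mitochondrial ones. The lowest Pearson's r was 0.987 at a pseudocount of 0.1 CPM and 0.988 over expressed genes. All other list counts stayed within 1.5 times. With the longest transcript as length, VIM led AXL, TIMP1 led TIMP3, ANXA2 led ANXA5, MAP2K2 led HRAS, SMAD3 led SKI and TIE1 led KDR. Ranked by CPM with no length, 11 of 43 lists had another leader. Without Control 16 or without Control 21 TIMP1 led TIMP3, without Control 16 MAP2 led GFAP, and without Control 26 IL11 led TGFB1. Depth limits the call of absence, since 3 counts are 0.128 to 0.157 CPM.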
